A study of Mus musculus with 62 samples.

Results

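The mitochondrial genome of the mouse encodes 37 genes, and all 37 rows whose symbol starts with mt- were taken from a table of 47643 genes measured in the diaphragm, the main breathing muscle. They are 13 protein-coding genes, 2 ribosomal RNAs and 22 transfer RNAs. RNA-seq was done on diaphragms of 62 female mice. The labels give an age of 2 months at every week, whereas the study's methods give 2 months as the age at purchase, before injection. On that second reading, mice examined at later weeks were also older, so week and age move together. The mice carried a patient-derived melanoma xenograft that causes wasting (cachectic), carried another melanoma xenograft that does not (non-cachectic), or were mock injected (control). They were examined at 2, 4, 6 and 8 weeks after tumor implantation or mock injection. Each of the 12 conditions had 5 mice, except for the 7 cachectic mice at 8 weeks. The sample labels give the strain as C57BL6/J, whereas the design text of the series gives NCI Ath/nude, athymic mice that lack mature T cells and so accept human tumors. Each kind of tumor-bearing mouse carried 1 xenograft, so wasting and other properties of that tumor cannot be told apart.

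Both strands of the small circular mitochondrial genome are transcribed into long RNAs that are cut into mRNAs, rRNAs and tRNAs, with the tRNAs marking many of the cleavage sites. The mRNAs encode core subunits of the complexes of oxidative phosphorylation, which respiratory muscle uses for sustained ATP supply. The remaining subunits, and the proteins that copy, process and translate mitochondrial RNA, are encoded in the nucleus.

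Of the 37 genes, only the 13 protein-coding genes had values above 0. The rRNA genes mt-Rnr1 and mt-Rnr2, which encode the RNAs of the small and large mitochondrial ribosomal subunit, were listed at 0 in all 62 mice. The 22 tRNA genes mt-Ta, mt-Tc, mt-Td, mt-Te, mt-Tf, mt-Tg, mt-Th, mt-Ti, mt-Tk, mt-Tl1, mt-Tl2, mt-Tm, mt-Tn, mt-Tp, mt-Tq, mt-Tr, mt-Ts1, mt-Ts2, mt-Tt, mt-Tv, mt-Tw and mt-Ty were also listed at 0 in all 62 mice. Every one of the 5963 genes in 11 classes of structural and small RNA, these 24 included along with miRNAs and snRNAs, was listed at 0 in all mice, so these 24 rows carry no reading of mitochondrial rRNA or tRNA levels and were not tested. The nuclear gene Gm10925 on chromosome 1, for which RefSeq gives mt-Atp6 as a synonym, was listed at 0 as well. How reads that match both copies were assigned is not given in the sources used here.

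Because several mitochondrial genes overlap, their values are not fully separate. Each window below holds the overlap with 20 bases on either side, on the forward strand of GRCm38, with the shared bases in capitals. They are shown because the values of the paired genes are set side by side in the results.

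mt-Atp8 end and mt-Atp6 start, chrM:7907-7989: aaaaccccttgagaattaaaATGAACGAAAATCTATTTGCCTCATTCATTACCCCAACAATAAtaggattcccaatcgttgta
mt-Nd4l end and mt-Nd4 start, chrM:10147-10193: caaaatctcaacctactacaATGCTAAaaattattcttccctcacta
mt-Nd5 end and mt-Nd6 end on the reverse strand, chrM:13532-13585: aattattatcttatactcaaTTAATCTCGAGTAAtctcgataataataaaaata

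The overlaps of mt-Atp8 with mt-Atp6 (chrM:7927-7969) and of mt-Nd4l with mt-Nd4 (chrM:10167-10173), of 43 and 7 bases, lie within bicistronic mRNAs that carry both reading frames. The overlap of mt-Nd5 with mt-Nd6 (chrM:13552-13565), of 14 bases, joins genes on opposite strands, and whether reads were counted by strand is not given in the sources used here. Reads of mt-Nd5 and mt-Nd6 in the overlap therefore cannot be assigned with certainty, and antisense RNA over either gene cannot be told apart from its mRNA.

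A second feature of these mRNAs bears on how they are captured. The libraries were made with a kit for mRNA, and polyadenylation completes the stop codon of some mitochondrial mRNAs. Of the 13 coding sequences in the annotation, 10 ended with a complete stop codon and 3 did not. The annotated ends of mt-Nd1 (chrM:3707) and mt-Nd2 (chrM:4951) lie past the starts of the tRNA genes mt-Ti (chrM:3706) and mt-Tw (chrM:4950). Where these mRNAs end in the cell was not read here, so the count holds for the annotation alone. The 3 incomplete ends are shown, 30 bases each on the forward strand, with the last base, the T that polyadenylation extends, in capitals.

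mt-Co3, chrM:9361-9390: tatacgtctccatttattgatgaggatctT
mt-Nd4, chrM:11515-11544: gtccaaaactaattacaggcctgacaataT
mt-Cytb, chrM:15259-15288: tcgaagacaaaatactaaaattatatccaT

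The starts of mt-Nd1 and mt-Nd2 are shown because these 2 complex I mRNAs carried the lower values described below, 60 bases each on the forward strand, with the first codon in capitals.

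mt-Nd1, chrM:2751-2810: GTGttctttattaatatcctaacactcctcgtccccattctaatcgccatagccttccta
mt-Nd2, chrM:3914-3973: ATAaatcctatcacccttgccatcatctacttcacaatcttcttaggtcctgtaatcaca

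Neither begins with ATG, the first codon of 9 of the 13 mRNAs, and 4 began with another codon.

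The 13 mRNAs were among the most abundant genes with a reading here, which leaves out rRNA, tRNA and small RNA. Levels are given as percent of TPM, the share of the 1000000 length-corrected transcript units in each library, so genes of unlike length can be set side by side. Genes of a bicistronic mRNA still had unequal TPM, as given below. The order between genes is therefore an order of TPM and may differ from that of RNA levels. By median over 62 mice, 12 of the 13 ranked among the 20 most abundant genes, and mt-Nd6 ranked 96. The cytochrome c oxidase subunits of complex IV led, with medians of 9.50% for mt-Co1, 6.08% for mt-Co3 and 6.01% for mt-Co2. The ATP synthase subunits followed with 5.08% for mt-Atp6 and 3.50% for mt-Atp8. The only subunit of complex III encoded in mitochondria, mt-Cytb, stood at 3.36%. The NADH dehydrogenase subunits of complex I stood lower, at 2.98% for mt-Nd1, 2.26% for mt-Nd4, 2.08% for mt-Nd2, 1.77% for mt-Nd4l, 1.21% for mt-Nd5 and 1.07% for mt-Nd3. mt-Nd6, the only protein encoded on the other strand, stood at 0.0773%. For scale, the most abundant nuclear gene was Acta1, skeletal muscle actin, at 2.74%.

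The order at the top was clear for mt-Co1, whose lowest value of 6.75% exceeded the medians of mt-Co2 and mt-Co3. mt-Co2 and mt-Co3 ranged from 3.96% to 8.24% and from 4.18% to 12.6%, and their order differed between mice. At 8 weeks control replicate 1 held 6.80% of mt-Co2 and 6.68% of mt-Co3, and control replicate 4 held 5.68% and 6.01%. The spread between mice of a condition was smallest for mt-Nd4 and mt-Cytb, at an SD of 0.10 on the log2 scale each. It was largest for mt-Nd6, at 0.70, and mt-Nd5, at 0.26.

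**Figure D1:**
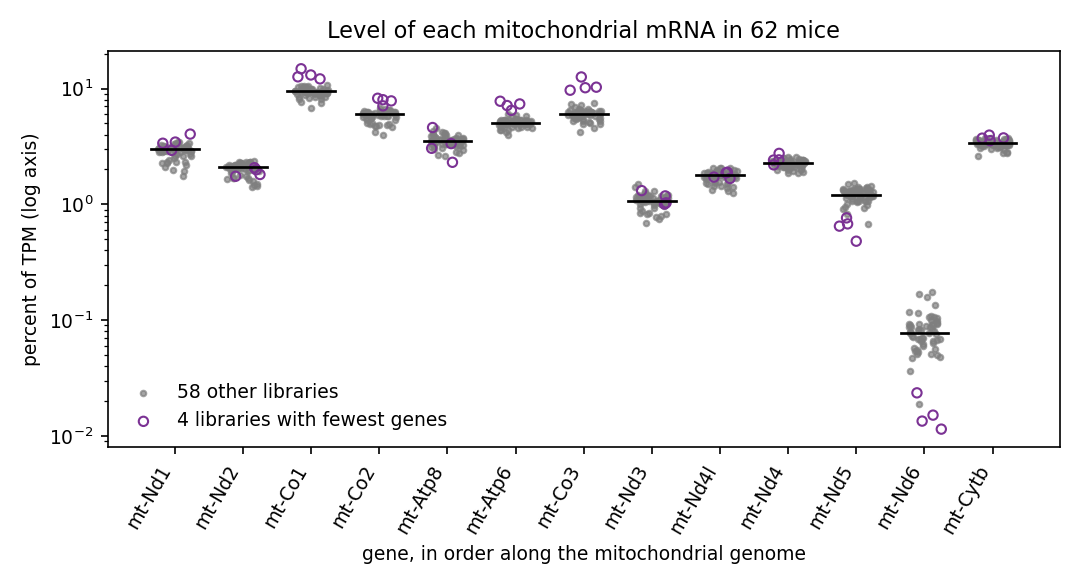
Percent of TPM (log axis) of each of the 13 mitochondrial mRNAs in 62 mice, with a bar at the median and open circles for the 4 libraries that listed the fewest genes. mt-Co1 is highest with a median of 9.50% and mt-Nd6 lowest with 0.0773%.

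The genes of a bicistronic mRNA did not have equal TPM. The ratio of mt-Atp8 to mt-Atp6 was 0.681 ± 0.092 (SD, n = 62) and that of mt-Nd4l to mt-Nd4 was 0.773 ± 0.060 (SD, n = 62). By contrast, the ratio of mt-Nd5 to mt-Nd6 ranged from 8.06 to 48.2. Counting, fragment selection and shared bases can all set such ratios, and their part was not tested.

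A set of 4 libraries stood apart before any comparison. They listed the fewest genes above 0, from 15069 to 16389. From 2 weeks they include replicates 3 and 4 of the cachectic mice and replicate 5 of the non-cachectic mice, and from 8 weeks replicate 3 of the cachectic mice. The 13 mRNAs made up 54.4% to 61.5% of TPM in these libraries and 32.5% to 50.1% in the other 58. Within the mitochondrial sum, mt-Co3 held 16.9% to 20.5% in the 4 libraries against a median of 13.3% in the others. mt-Nd5 held 0.842% to 1.25% against 2.79%, and mt-Nd6 0.0201% to 0.0383% against 0.171%, both below every other library. The highest levels of liver genes were in 4 other libraries, those of control mice 2, 4 and 5 at 2 weeks and of cachectic mouse 5 at 6 weeks. Comparisons that rest on either set are also given without it where the calls changed.

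**Figure D2:**
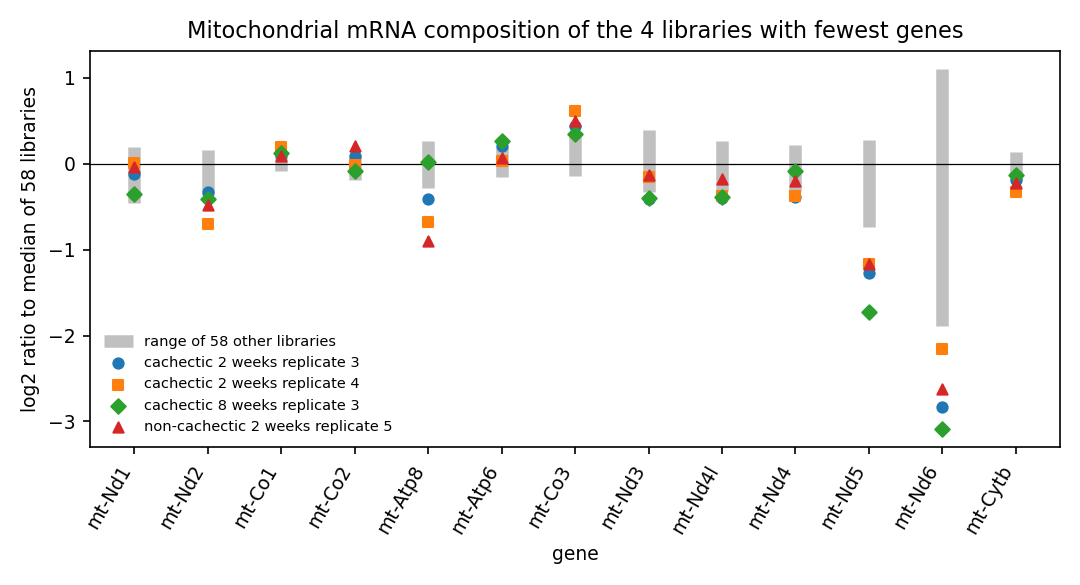
Share of each mRNA in the mitochondrial sum, as a log2 ratio to the median of the 58 other libraries, for the 4 libraries with the fewest genes (symbols); grey bars are the range of the 58. mt-Nd5 and mt-Nd6 lie below the grey range in all 4.

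The first question was whether the summed level of the mitochondrial mRNAs differed as cachexia progressed. At 6 weeks the sum was 34.3%, 39.9%, 39.3%, 39.8% and 44.9% of TPM in cachectic mice, a mean of 39.6% ± 3.76 (SD, n = 5). In control mice it was 47.9%, 44.9%, 45.5%, 46.2% and 47.5%, a mean of 46.4% ± 1.27 (SD, n = 5). All 5 cachectic mice lay below the lowest control mouse, although the highest cachectic value and the lowest control value both round to 44.9%. In non-cachectic mice it was 46.5%, 44.8%, 43.2%, 47.9% and 47.2%, a mean of 46.0% ± 1.90 (SD, n = 5), and 4 of the 5 cachectic mice lay below the lowest of these.

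At 8 weeks the sum was 41.6%, 40.5%, 57.1%, 37.2%, 37.6%, 32.5% and 38.7% in cachectic mice, a mean of 40.7% ± 7.78 (SD, n = 7). It was 49.3%, 40.9%, 44.2%, 43.9% and 46.8% in control mice and 45.6%, 45.1%, 44.7%, 44.9% and 45.5% in non-cachectic mice. Of the 7 cachectic mice, 5 lay below every control mouse and 6 below every non-cachectic mouse. Cachectic replicate 3, with 57.1%, lay above every mouse of both groups and is among the 4 libraries with the fewest genes, and replicate 1, with 41.6%, lay above the lowest control mouse. Without replicate 3 the cachectic mean was 38.0% ± 3.19 (SD, n = 6), which is 7.02 percentage points below the control mean of 45.0% ± 3.16 (SD, n = 5) and 7.16 points below the non-cachectic mean of 45.2% ± 0.416 (SD, n = 5).

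At 4 weeks the cachectic mean of 43.0% ± 2.20 (SD, n = 5) was 3.34 points below the control mean of 46.3% ± 1.72 (SD, n = 5), and the groups overlapped. At 2 weeks the cachectic mice ranged from 40.0% to 61.5% and the control mice from 41.0% to 49.4%. No p is given for a sum over genes chosen together. Since TPM is a share of the library, a lower mitochondrial sum and a higher nuclear sum are the same measurement. In whole muscle, fewer mitochondria-rich cells and less mitochondrial RNA per cell cannot be told apart.

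**Figure D3:**
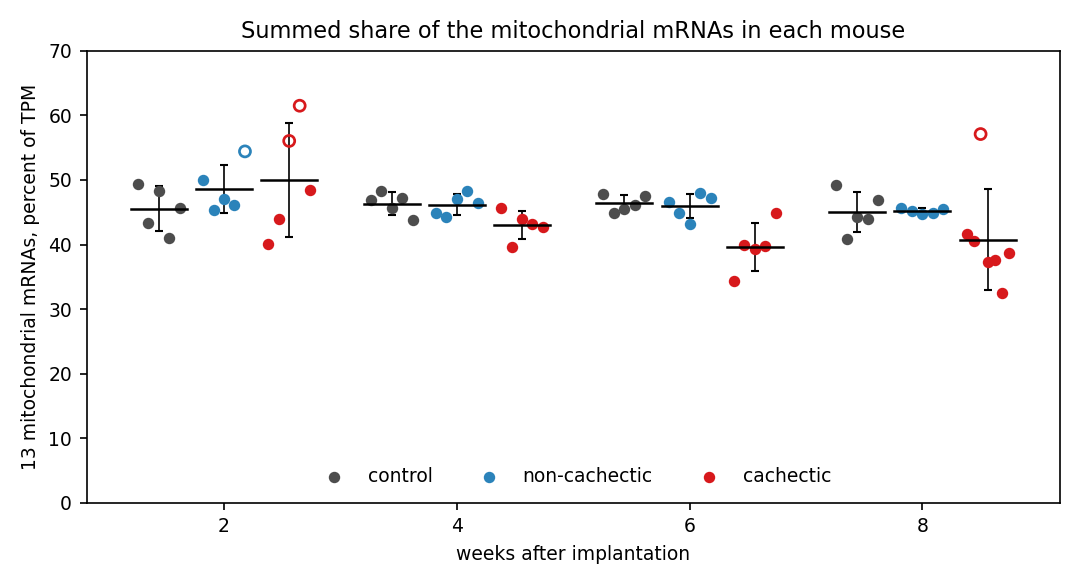
Sum of the 13 mitochondrial mRNAs in percent of TPM (axis from 0) for every mouse by week and group; bars are the mean and SD, and open circles mark the 4 libraries with the fewest genes. At 6 weeks all 5 cachectic mice lie below the control mice, and at 8 weeks 5 of 7 do.

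The next comparison took each mRNA on its own, using limma on log2(TPM + 1) across all 13578 genes tested, with a call at a Benjamini-Hochberg adjusted p under 0.05. Against control mice, 5 of the 13 mRNAs fell in cachectic mice at 6 weeks and 5 at 8 weeks, and 0 rose. mt-Nd1, mt-Nd2, mt-Co2 and mt-Nd4l fell at both times. Among all genes tested, 1.17% were called lower at 6 weeks and 8.12% at 8 weeks, and 6.79% and 14.8% in either direction. The median log2 fold change of the 13 was -0.22 at 6 weeks and -0.21 at 8 weeks, beside 0.17 and -0.09 for all genes tested.

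The complex I subunit mt-Nd1 (chrM:2751-3707) had the largest fold change among the called mRNAs at 6 weeks. It stood at 1.94%, 2.34%, 2.41%, 2.31% and 3.00% of TPM in cachectic mice at that time and at 3.49%, 3.14%, 3.13%, 3.42% and 3.09% in control mice. All cachectic mice were below all control mice, and the log2 fold change was -0.45 (SE 0.10, adjusted p = 0.00246 by limma). At 8 weeks cachectic mice had a low of 1.76%, a median of 2.27% and a high of 2.93%, and control mice held 3.22%, 2.50%, 2.91%, 2.81% and 3.23%. The groups overlapped at 8 weeks, with cachectic replicate 3 the highest cachectic mouse, and the log2 fold change was -0.41 (SE 0.09, adjusted p = 0.00121 by limma). How many of all genes tested separated as mt-Nd1 did at 6 weeks is not given. Here and below, non-overlap of groups is therefore a description only.

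mt-Nd2 (chrM:3914-4951), a membrane-arm subunit of complex I, fell at both times as well. At 6 weeks it stood at 1.44%, 1.79%, 1.77%, 1.66% and 1.99% in cachectic mice and at 2.20%, 2.29%, 2.12%, 2.29% and 2.23% in control mice, with no overlap. The log2 fold change was -0.37 (SE 0.08) at 6 weeks and -0.35 (SE 0.07) at 8 weeks, with limma adjusted p = 0.00164 and 0.000433. At 8 weeks the cachectic mice had a low of 1.42%, a median of 1.64% and a high of 1.99%, and the control mice ranged from 1.69% to 2.23%.

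mt-Co2 (chrM:7013-7696) encodes the cytochrome c oxidase subunit that receives electrons from cytochrome c, and it was the only complex IV mRNA that passed against control mice. At 6 weeks it stood at 4.19%, 4.82%, 5.06%, 4.90% and 5.82% in cachectic mice and at 6.23%, 6.01%, 5.94%, 6.24% and 6.30% in control mice. The groups did not overlap, and the log2 fold change was -0.32 (SE 0.09, adjusted p = 0.0276 by limma), and -0.26 (SE 0.09, adjusted p = 0.0349) at 8 weeks. The call at 8 weeks was lost with the replicate number as a block (-0.19, adjusted p = 0.124 by limma). On TPM of nuclear genes alone it was lost at 6 weeks (-0.49, adjusted p = 0.0672 by limma) and at 8 weeks (-0.36, adjusted p = 0.0768). Over all alternatives and single mice left out, the mt-Co2 call was lost in 10 settings and kept in 9 at 6 weeks. At 8 weeks it was lost in 11 and kept in 10. The calls of mt-Nd1 and mt-Nd2 were each lost in 2 settings at each time. The log2 fold change of mt-Co1 was -0.21 at 6 weeks and -0.13 at 8 weeks, and that of mt-Co3 was -0.22 and -0.03. Neither passed the test at either time, although the mt-Co1 values of cachectic and control mice did not overlap at 6 weeks.

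Of the remaining complex I mRNAs, mt-Nd4l fell by 0.29 (SE 0.08) at 6 weeks and by 0.25 (SE 0.07) at 8 weeks on the log2 scale. Over the settings counted for mt-Co2, the mt-Nd4l call was lost in 6 and kept in 13 at 6 weeks. At 8 weeks it was lost in 4 and kept in 17. mt-Nd3 fell by 0.33 (SE 0.11) at 6 weeks, just past the threshold with an adjusted p = 0.0494 by limma, and did not pass at 8 weeks. The mt-Nd3 call at 6 weeks was lost in 13 of these settings and kept in 6. mt-Nd4, which shares its mRNA with mt-Nd4l, had log2 fold changes of -0.19 and -0.14 and passed at neither time. mt-Nd6 had a log2 fold change of -0.35 (SE 0.43) at 6 weeks and fell by 1.17 (SE 0.40, adjusted p = 0.0372 by limma) at 8 weeks. The mt-Nd6 call at 8 weeks was lost in 7 of these settings and kept in 14. The other mRNAs had log2 fold changes between -0.39 and -0.03 at these times and did not pass, with mt-Nd5 at -0.18 and -0.39, mt-Cytb at -0.13 and -0.16, mt-Atp8 at -0.14 and -0.17 and mt-Atp6 at -0.13 and -0.03.

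Against non-cachectic mice, which also carried a tumor, 3 mRNAs fell at 6 weeks and 7 at 8 weeks, and 0 rose. Of all genes tested, 1.57% and 6.19% were called lower, and 5.85% and 12.9% in either direction. This comparison shares its cachectic mice with the previous one, so it is not a repeat of it. mt-Nd1, mt-Nd2 and mt-Nd3 fell at 6 weeks. At 8 weeks mt-Nd1 fell by 0.50 (SE 0.09, adjusted p = 0.000115 by limma) and mt-Nd2 by 0.45 (SE 0.07, adjusted p = 1.5e-05 by limma). Non-cachectic mice had 3.11%, 3.06%, 3.31%, 3.07% and 2.99% of TPM in mt-Nd1 and 2.26%, 2.34%, 2.13%, 2.13% and 2.18% in mt-Nd2, and for neither gene did any cachectic mouse reach them.

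The other 5 mRNAs that fell against non-cachectic mice at 8 weeks were mt-Co2 (log2 fold change -0.26), mt-Nd4l (-0.33), mt-Nd4 (-0.18), mt-Nd5 (-0.57) and mt-Nd6 (-1.32). So 6 of the 7 that fell encode complex I subunits, out of 7 complex I subunits among the 13. Without the 4 libraries with the fewest genes, mt-Co1 (-0.21, adjusted p = 0.00341 by limma), mt-Atp8 (-0.19, adjusted p = 0.0398) and mt-Cytb (-0.22, adjusted p = 0.00113) also fell. None of these encodes a complex I subunit, so the lean to complex I was weaker in that fit. mt-Nd5 ranged from 0.481% to 1.17% in cachectic mice and from 1.21% to 1.53% in non-cachectic mice. mt-Nd6 had a low of 0.0115%, a median of 0.0485% and a high of 0.0932% in cachectic mice. It stood at 0.107%, 0.159%, 0.0798%, 0.0780% and 0.0664% in non-cachectic mice, so the groups overlapped.

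**Figure D4:**
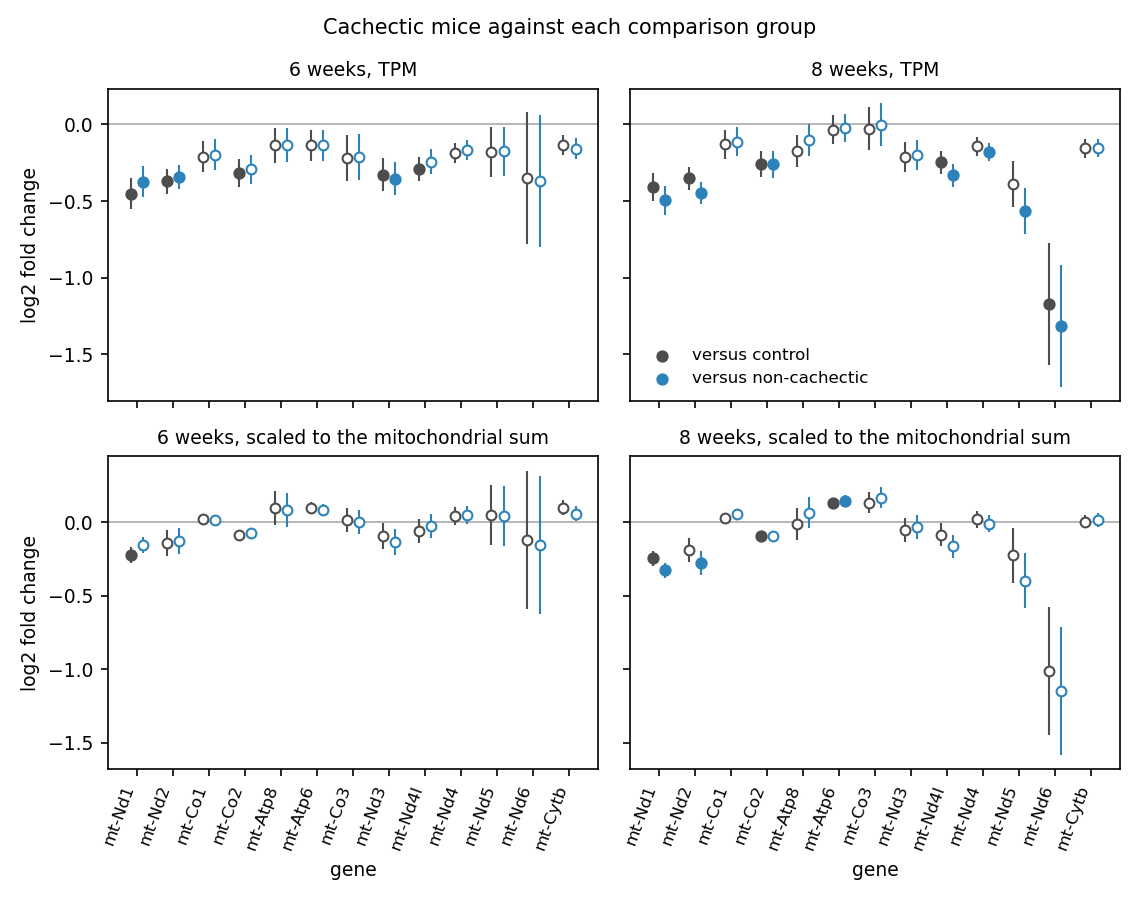
Log2 fold change of cachectic mice against control (grey) and non-cachectic mice (blue) at 6 and 8 weeks, on TPM (top) and after scaling each library to the same mitochondrial mRNA sum (bottom). Lines are 1 SE and filled points passed the limma test at an adjusted p under 0.05; mt-Nd1 and mt-Nd2 are low in all panels and mt-Atp6 is above 0 in the bottom ones.

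Without the 4 libraries with the fewest genes, more mRNAs fell, also at 6 weeks, from which none of them comes, since the fit shares a single estimate of the spread. Against control mice 7 fell at 6 weeks and 9 at 8 weeks, where 4.29% and 12.4% of all genes tested were called lower. Against non-cachectic mice 8 fell at 6 weeks and 10 at 8 weeks, beside 5.18% and 10.2% of all genes. In that fit at 8 weeks mt-Co1 (log2 fold change -0.23, SE 0.06, adjusted p = 0.00152 by limma) and mt-Cytb (-0.22, SE 0.05, adjusted p = 0.000953 by limma) also fell against control mice. mt-Nd6 still fell, by 0.89 (SE 0.28, adjusted p = 0.0110), and mt-Nd5 did not pass against control mice, with a log2 fold change of -0.24 and an adjusted p = 0.0842. mt-Atp6 and mt-Co3 did not pass at 8 weeks with or without these libraries.

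The calls against control mice depended on the scale and the test. Median-ratio scaling divides each library by the median ratio of its genes to their mean over libraries. With it 0 of the 13 were called at 6 weeks and 1, mt-Nd6, at 8 weeks, but 12 and 9 fell when the 4 libraries with the fewest genes were also left out. The share of all genes called on that scale is not given here, so these counts cannot be set against it. With all libraries on that scale the log2 fold changes at 6 weeks were -0.64 for mt-Nd1 (adjusted p = 0.156 by limma), -0.56 for mt-Nd2 (adjusted p = 0.124) and -0.51 for mt-Co2 (adjusted p = 0.321). Those of all 13 were between -0.64 and -0.33. At 8 weeks mt-Nd1 and mt-Nd2 had log2 fold changes of -0.25 and -0.19 and did not pass. mt-Co1, mt-Atp6, mt-Co3, mt-Nd4 and mt-Cytb had log2 fold changes above 0 there, none past the test. Dunn's rank test called 0 of the 13 at both times, and without a filter on low values limma called 2 at each.

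At the earlier times the picture differed. At 4 weeks limma called 0 of the 13 against control mice, where 0.0221% of all genes were called, and 0 against non-cachectic mice, where 0.0295% were. At an unadjusted p under 0.05 there were 1 and 0, and Dunn's test called 0 in both. At 4 weeks mt-Nd1 and mt-Nd2 had log2 fold changes of -0.16 and -0.20 against control mice. At 2 weeks mt-Nd5 (-0.47, SE 0.16) and mt-Nd6 (-1.17, SE 0.43) fell against control mice, but 29.3% of all genes were called there, and 27.8% of all genes were called lower. Without the 4 libraries with the fewest genes 0 of the 13 were called, and without the 4 libraries with the most liver RNA also 0. In the comparison with the non-cachectic group at 2 weeks, limma called 0 of the 13 and 0% of all genes, with 1 of the 13 at an unadjusted p under 0.05 and 0 by Dunn's test.

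No difference between non-cachectic and control mice was detectable in these mRNAs. limma called 0 of the 13 at 2, 4, 6 and 8 weeks, as did Dunn's test, with 0 at an unadjusted p under 0.05 at each time. Of all genes tested, 4.43% were called at 2 weeks and 0% at 4, 6 and 8 weeks. At 8 weeks the summed share differed by 0.139 percentage points between these groups.

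Across time within a group, mt-Nd4l fell by 0.27 (SE 0.07, adjusted p = 0.0403 by limma) in cachectic mice from 4 to 8 weeks, and it was the only call of the 13, where 2.07% of all genes were called. Another 5 of the 13 had an unadjusted p under 0.05, including mt-Nd1 and mt-Nd2, with log2 fold changes of -0.31 and -0.24. The call on mt-Nd4l was lost when any of 9 of the 12 cachectic mice was left out singly. Without the third cachectic mouse at 8 weeks, 4 mRNAs fell, and without the second at 4 weeks, 3 fell. In non-cachectic and in control mice limma called 0 of the 13 and 0% of all genes from 4 to 8 weeks, with 0 of the 13 at an unadjusted p under 0.05 and 0 by Dunn's test. The change of the cachectic to control difference from 4 to 8 weeks was tested directly, and 0 of the 13 and 0% of all genes were called, also with 0 of the 13 at an unadjusted p under 0.05. The calls against control mice at 8 weeks are therefore not shown to differ from the absence of calls at 4 weeks. Changes of the difference from 4 to 6 weeks, and of the difference from non-cachectic mice, were not tested.

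The second question was whether the mRNAs kept their proportions to each other. Each library was scaled to the same mitochondrial sum and tested again, which removes any shared fall. In these shares a gain of 1 gene forces a loss in others. At 8 weeks mt-Nd1 (log2 fold change -0.25, SE 0.05, adjusted p = 0.000453) and mt-Co2 (-0.10, SE 0.03, adjusted p = 0.0442) fell and mt-Atp6 (0.13, SE 0.04, adjusted p = 0.0199) rose against control mice by limma. On this scale 9.98% of all genes were called. Against non-cachectic mice mt-Nd1 (-0.33, SE 0.05, adjusted p = 7.09e-06) and mt-Nd2 (-0.28, SE 0.08, adjusted p = 0.0157) fell and mt-Atp6 (0.14, SE 0.04, adjusted p = 0.00711) rose by limma, beside 10% of all genes.

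As a share of the mitochondrial sum, mt-Nd1 at 8 weeks had a low of 4.76%, a median of 5.59% and a high of 6.05% in cachectic mice. It held 6.54%, 6.11%, 6.59%, 6.39% and 6.90% in control mice and 6.82%, 6.79%, 7.40%, 6.85% and 6.56% in non-cachectic mice. No cachectic mouse overlapped either group, cachectic replicate 3 with 5.13% included. mt-Nd2 had a low of 3.48%, a median of 4.37% and a high of 4.47% in cachectic mice, against 4.75% to 5.18% in non-cachectic and 4.13% to 4.98% in control mice. mt-Atp6 (chrM:7927-8607), the proton channel subunit of ATP synthase, had a low of 11.7%, a median of 12.5% and a high of 13.6% in cachectic mice. It held 11.01% to 12.2% in control mice, so the groups overlapped.

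Cachectic replicates 1, 2 and 3 at 8 weeks stood together on this scale. mt-Nd2 held 3.60%, 3.65% and 3.48% of the sum in them and 4.37% to 4.47% in the other 4 cachectic mice, and mt-Co3 held 16.1%, 17.2% and 16.9% against 12.8% to 13.7%. Replicates 1 and 2 listed 18066 and 18634 genes and are not among the libraries with few genes. mt-Nd1 was below the other groups in all 7 cachectic mice, these 3 included.

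At 6 weeks on the same scale mt-Nd1 fell by 0.22 (SE 0.05, adjusted p = 0.00537 by limma) against control mice, and it was the only call, with 11.5% of all genes called. Against non-cachectic mice 0 of the 13 passed, with 7.79% of all genes called, 2 of the 13 at an unadjusted p under 0.05 and 0 by Dunn's test. At 4 weeks limma and Dunn's test called 0 in both comparisons, with 0.0295% of all genes called by limma in each, and 0 of the 13 had an unadjusted p under 0.05. At 2 weeks mt-Nd5 fell by 0.59 against control mice, where 14.2% of all genes were called, but not without either set of 4 libraries, and limma called 0 of the 13 and 0% of all genes against non-cachectic mice, with 1 of the 13 at an unadjusted p under 0.05 and 0 by Dunn's test.

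**Figure D5:**
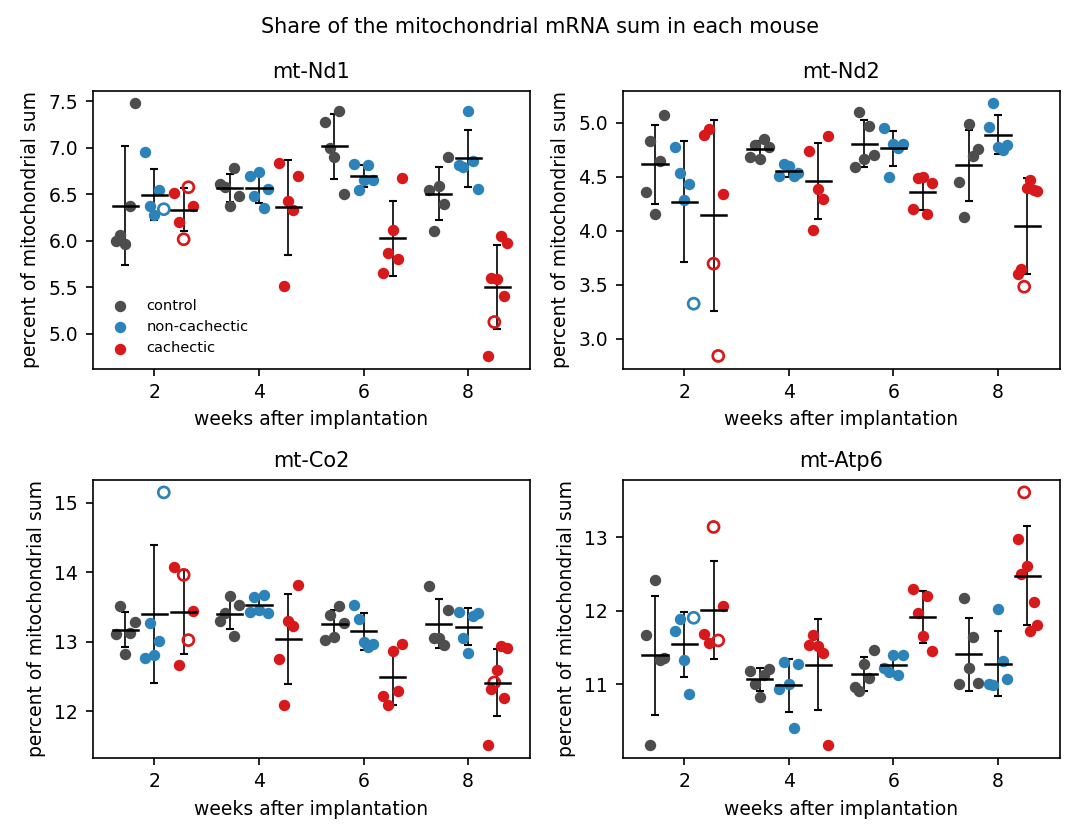
Percent of the mitochondrial mRNA sum held by mt-Nd1, mt-Nd2, mt-Co2 and mt-Atp6 in every mouse by week and group (axes do not start at 0); bars are the mean and SD, and open circles mark the 4 libraries with the fewest genes. At 8 weeks mt-Nd1 is at most 6.05% in cachectic mice and at least 6.11% in the others.

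Ratios between named mRNAs need no reference to the sum. The ratio of mt-Nd1 to mt-Cytb at 8 weeks was 0.725 ± 0.064 (SD, n = 7) in cachectic mice, 0.862 ± 0.056 (SD, n = 5) in control mice and 0.917 ± 0.051 (SD, n = 5) in non-cachectic mice. The cachectic range of 0.643 to 0.809 overlapped the control range of 0.786 to 0.937 and lay below the non-cachectic low of 0.847. At 4 weeks the ratio was 0.834 ± 0.083, 0.857 ± 0.022 and 0.872 ± 0.034 (SD, n = 5 each). The ratio of mt-Co1 to mt-Co2 at 8 weeks was 1.75 ± 0.123 (SD, n = 7) in cachectic mice, 1.60 ± 0.0594 (SD, n = 5) in control mice and 1.58 ± 0.0150 (SD, n = 5) in non-cachectic mice.

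The mitochondrial mRNAs were then set beside the nuclear subunits of the same complexes. Complex I draws on both genomes, and its 7 mitochondrial mRNAs summed to 9.35% ± 0.824 (SD, n = 7) of TPM in cachectic mice at 8 weeks and 11.4% ± 1.15 (SD, n = 5) in control mice. Its 36 nuclear subunits summed to 1.24% ± 0.0953 (SD, n = 7) and 1.23% ± 0.0606 (SD, n = 5). The mitochondrial to nuclear ratio of complex I was therefore 7.54 ± 0.692 (SD, n = 7) against 9.32 ± 1.29 (SD, n = 5), and 10.3 ± 0.799 (SD, n = 5) in non-cachectic mice. For complex III, ratios were 5.35 ± 0.886 (SD, n = 7) in cachectic and 5.39 ± 0.554 (SD, n = 5) in control mice. For complex V they were 6.20 ± 1.72 (SD, n = 7) and 6.38 ± 0.428 (SD, n = 5), differences within a spread that includes cachectic replicate 3. Without that replicate the mitochondrial sums of complexes III and V were 2.93% ± 0.226 and 7.64% ± 0.589 of TPM (SD, n = 6). In control mice they were 3.40% ± 0.205 and 8.68% ± 0.387 (SD, n = 5). For complex IV the ratio was 13.6 ± 3.60 (SD, n = 7) against 15.9 ± 1.61 (SD, n = 5), and 12.4 ± 1.39 (SD, n = 6) without cachectic replicate 3. Ratios without that replicate are not given here for complexes I, III and V. Complexes III and V are therefore not shown to differ from complexes I and IV in this ratio.

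Among single nuclear subunits tested against control mice at 8 weeks, 2 of 36 rose and 5 fell in complex I, 0 rose and 4 of 9 fell in complex III, and 1 rose and 1 fell of 13 in complex IV and of 17 in complex V. Among all genes tested, 6.65% were called higher and 8.12% lower. The median log2 fold change was -0.01 in complex I, -0.07 in complex III, 0.14 in complex IV and -0.04 in complex V, beside -0.09 for all genes tested. Uqcrc1 and Cyc1 of complex III fell by 0.69 and 0.62 on the log2 scale, Cox7a1 of complex IV by 0.57 and Ndufs1 of complex I by 0.55. Without the 4 libraries with the fewest genes the counts were 3 higher and 10 lower in complex I and 4 and 4 in complex V. In that fit complex IV had 2 higher and 2 lower, and complex III 0 higher and 4 lower, where 22.2% of all genes were called higher and 12.4% lower. The medians were then -0.04 in complex I, -0.05 in complex III, 0.13 in complex IV and 0.003 in complex V, beside 0.06 for all genes tested. Those of complexes I, III and V lay below the median of all genes in that fit and above it with all libraries. On TPM of nuclear genes alone 12 of 36 fell in complex I, 4 of 9 in complex III, 2 of 13 in complex IV and 4 of 17 in complex V. On that scale 1 of the 13 in complex IV rose and 0 rose in the others, while 21.2% of all genes were called lower and the median of all genes was -0.21.

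Nuclear genes for mitochondrial gene expression cover transcription, RNA processing and translation. Of the 56 listed and tested, 1 rose and 14 fell at 8 weeks against control mice, with a median log2 fold change of -0.24, beside -0.09 for all genes tested, of which 8.12% were called lower. At 6 weeks 0 rose and 1 fell, where 5.62% of all genes were called higher and 1.17% lower. Tfam, which packages mitochondrial DNA and is needed for its transcription, fell by 0.56 (SE 0.10) at 8 weeks. The translational activator of cytochrome c oxidase Taco1 fell by 0.97 (SE 0.15), and it was the 1 gene of the list that fell at 6 weeks, by 0.60 (SE 0.16).

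Among the others, Mterf2, of the mitochondrial termination factor family, fell by 0.86 and the translation factors Mtif2 and Tsfm by 0.73 and 0.57. The rRNA methyltransferases Mrm1 and Ftsj2, also named Mrm2, fell by 0.70 and 0.57, and Fastkd1, of a family of mitochondrial RNA-binding proteins, fell by 0.58. The mitochondrial RNA polymerase Polrmt (log2 fold change -0.58, SE 0.31) and Lrpprc, which stabilizes mitochondrial mRNAs (-0.39, SE 0.17), did not pass against control mice. Lrpprc fell by 0.53 (SE 0.17) against non-cachectic mice. Of 12 regulators of mitochondrial biogenesis, 0 rose and 3 fell at 8 weeks, and 0 passed at 6 weeks, beside the same shares of all genes. The 3 were Tfam and the muscle regulators Perm1 (log2 fold change -1.45) and Ppargc1b (-1.21), while Ppargc1a (-0.44, SE 0.35), a coactivator that drives mitochondrial biogenesis, did not pass.

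Without the 4 libraries with the fewest genes, 2 rose and 19 fell of the mitochondrial gene expression list, and 1 rose and 5 fell of the biogenesis list at 8 weeks, beside 12.4% of all genes called lower. The median of the first list was then -0.16, beside 0.06 for all genes tested.

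Markers of the tissue and of other cells were read beside these results. The 12 skeletal muscle markers summed to 5.12% to 11.1% of TPM in cachectic mice at 8 weeks, with a median of 9.60%, and to 7.29% to 8.86% in control mice, and 0 of them were at 0 throughout a group. Of the 12, 1 rose and 1 fell at 8 weeks against control mice, and 5 rose and 1 fell without the 4 libraries with the fewest genes. Of the other markers tested at 8 weeks against control mice, 3 of 6 macrophage and 2 of 4 neutrophil genes rose, and 1 rose and 4 fell of 6 fibroblast genes. Of 5 endothelial genes 0 rose and 1 fell, and limma called 0 of the liver, adipocyte, brown adipocyte, erythroid, heart and mesothelium genes. The 6 macrophage markers summed to 0.0124% to 0.0359% of TPM in cachectic and 0.0100% to 0.0155% in control mice. The 5 neutrophil markers summed to 0.000886% to 0.00733% and 0.000413% to 0.00150%, and the 6 fibroblast markers to 0.0682% to 0.168% and 0.0546% to 0.109%. The 5 erythroid markers summed to 0.0538% to 4.13% and 0.255% to 1.06%.

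At 6 weeks, 2 skeletal muscle markers rose and 1 fell of 12 against control mice, 2 of 6 macrophage and 1 of 6 fibroblast genes rose, and limma called 0 of the other marker genes. When the 4 libraries with the fewest genes were left out, where 26.9% of all genes were called higher and 4.29% lower, 6 skeletal muscle markers rose and 1 fell, and 4 macrophage, 2 fibroblast and 2 neutrophil genes rose. In that fit 2 of 5 endothelial genes rose and 1 fell, and 1 of 5 erythroid genes fell. The skeletal muscle markers summed to 7.96% to 10.5% of TPM in cachectic and 7.28% to 8.79% in control mice at 6 weeks. The macrophage markers summed to 0.0136% to 0.0248% and 0.00906% to 0.0145%, and the neutrophil markers to 0.00161% to 0.00305% and 0.000390% to 0.00127%. The macrophage sums of the groups overlapped and the neutrophil sums did not. The fibroblast sums of 0.0865% to 0.127% and 0.0740% to 0.106% overlapped, as did the erythroid sums of 0.118% to 1.44% and 0.389% to 1.07%. The part of the marker differences at both times in the mitochondrial results was not tested.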

How the data were processed

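RNA was extracted from mouse diaphragms with Trizol and sequenced as mRNA libraries. The sample labels name a stranded TruSeq kit, and the study's methods another TruSeq kit. The authors aligned reads to GRCm38 (mm10, per the labels) with CLC Genomics Workbench and deposited TPM values per gene. Every library sums to 1000000, so the depth in reads is unknown, and no counting error is given. 0 columns were left without a sample, and 0 of 1891 pairs of libraries were identical.

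Genes that reached 1 TPM in 5 or more mice (13578 of 47643, with 13 of the 37 mitochondrial genes) were fitted with limma 3.58.1 in R 4.3.3 on log2(TPM + 1), which understates changes of low genes. The fit used 12 condition means and a mean-dependent prior spread, with Benjamini-Hochberg adjustment within each comparison over all genes and a threshold of 0.05. A second fit scaled libraries to an equal mitochondrial mRNA sum. Dunn's test followed the authors' test. The fitting script was tested on simulated data.

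Positions, coding ends and sequences come from GENCODE M21 on GRCm38, and gene classes were matched by symbol for 94.7% of rows. Named mitochondrial genes are all 37. Named nuclear genes are the called genes for mitochondrial gene expression with the largest fold changes at 8 weeks, at most 8, with Tfam, Polrmt, Lrpprc and Ppargc1a, and at most 4 called nuclear subunits. The biogenesis regulators Perm1 and Ppargc1b were named after their values were seen. Of the listed symbols, 4 were found under older names through RefSeq. Members and lists were chosen with earlier results of these data known. Alternatives were another pseudocount of 0.1, no filter, median-ratio scaling, TPM of nuclear genes alone, a block for the replicate number, Dunn's rank test, and leaving out single mice or either set of 4 libraries. Median-ratio scaling without the 4 libraries with the fewest genes was added after seeing the data. Python 3.11.15 and matplotlib 3.10.9 drew the figures.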

Additional observations from a re-analysis of the deposited data

Results flagged for a closer look

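In 10 of 168 groups of 5 or 7 mice, the highest or lowest mouse lay farther from the nearest other mouse, relative to the group's range, than Dixon's criterion allows. Chance flags about 1 in 20 groups. All values are percent of TPM.

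Cachectic replicate 3 at 8 weeks, among the 4 libraries with the fewest genes, was the highest mouse of its group in the summed share (57.1%, nearest 41.6%), mt-Co1 (13.1%, nearest 9.38%), mt-Co2 (7.09%, nearest 4.99%), mt-Atp8 (4.61%, nearest 3.15%), mt-Atp6 (7.77%, nearest 5.39%) and mt-Nd4 (2.75%, nearest 2.20%). Non-cachectic replicate 5 at 2 weeks, another of these libraries, was the highest in mt-Co2 (8.24%, nearest 6.39%) and mt-Co3 (10.3%, nearest 6.51%). Cachectic replicate 2 at 4 weeks had the lowest mt-Co2 of its group (4.79%, nearest 5.71%). Non-cachectic replicate 2 at 8 weeks had the highest mt-Cytb (3.62%, nearest 3.37%).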

How the results depend on the processing

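Counts of called mRNAs are given for cachectic against control mice at 2, 6 and 8 weeks, then against non-cachectic mice at 6 and 8 weeks, then from 4 to 8 weeks in cachectic mice. All of these and of those under the alternatives in this paragraph were lower, and the values to compare are 2, 5, 5, 3, 7 and 1. Without a filter on low values they were 0, 2, 2, 0, 5 and 0. With median-ratio scaling they were 0, 0, 1, 0, 2 and 0, where size factors were 0.376 to 0.567 in the 4 libraries with the fewest genes and 0.875 to 1.29 in the others. Dunn's test gave 0, 0, 0, 0, 4 and 0. Without the 4 libraries with the fewest genes they were 0, 7, 9, 8, 10 and 6, and with median-ratio scaling besides, an alternative chosen after seeing the data, 0, 12, 9, 8, 10 and 4. Without the 4 libraries with the most liver RNA they were 0, 6, 5, 5, 7 and 2. On TPM of nuclear genes alone they were 1, 4, 5, 3, 5 and 0, and the median of all genes at 6 weeks against control mice moved from 0.17 to 0.03. A pseudocount of 0.1 gave 2, 4, 5, 3 and 7 in the first 5 comparisons. The cause of these shifts was not tested. For most of these alternatives the share of all genes called is not given. Their counts are therefore not read as a result about these mRNAs alone.

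After scaling to the mitochondrial sum, the counts for cachectic against control mice at 2, 6 and 8 weeks and against non-cachectic mice at 6 and 8 weeks were 1, 1, 3, 0 and 3. They were 0, 0, 0, 0 and 1 without a filter, 0, 1, 0, 0 and 1 with Dunn's test, 0, 5, 5, 2 and 6 without the 4 libraries with the fewest genes, and 0, 1, 2, 1 and 3 without the 4 with the most liver RNA. These counts hold both directions. Without the 4 libraries with the fewest genes mt-Atp6 rose at 6 and 8 weeks against control mice (log2 fold change 0.10 and 0.11). It also rose at 8 weeks against non-cachectic mice (0.12), as did mt-Co3 (0.13), and mt-Cytb rose at 6 weeks against control mice (0.10). In cachectic mice at 8 weeks, mt-Co3 held 16.1% and 17.2% of the sum in replicates 1 and 2. It held 12.8% to 13.7% in the other 4 of that fit, beside 12.1% to 13.6% in non-cachectic mice. The other calls of that fit were lower, with mt-Nd2 (-0.16) and mt-Nd6 (-0.64) new at 8 weeks against control mice. Shares of all genes in it are not given here.

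Replicate numbers did not pair the mice: of 60 pairs, the deviations of 18 correlated over 0.1 (range -0.633 to 0.387), and in 0 comparisons did all. With the replicate number as a block the 6 counts were 2, 5, 5, 4, 5 and 0, and on the scaled values 2, 1, 3, 0 and 6. The 5 at 8 weeks against control mice were not the same genes, since mt-Co2 lost its call (adjusted p = 0.124 by limma) and mt-Nd5 gained one (log2 fold change -0.51, adjusted p = 0.0227), and on TPM of nuclear genes alone mt-Co2 also lost its call (adjusted p = 0.0768) and mt-Nd5 gained one (adjusted p = 0.00821).

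Leaving out single mice gave 0 to 5, 2 to 6, 3 to 8, 1 to 5, 4 to 7 and 0 to 4 calls, and 0 to 1 against non-cachectic mice at 2 weeks (1 without non-cachectic replicate 5). On the scaled values it gave 0 to 7, 1 to 2, 1 to 3, 0 to 1 and 2 to 5. Against control mice at 8 weeks, 3 were called without control replicate 1, 3 or 5, and 8 without cachectic replicate 3. At 6 weeks 2 were called without cachectic replicate 1 or 2 or control replicate 1, and 3 without cachectic replicate 4 or control replicate 4 or 5. At 2 weeks there were 5 without cachectic replicate 1 and 4 without replicate 2, with 2 lower in each, 0 without cachectic replicate 3 or 4 or control replicate 2 or 5, and 1 without control replicate 3. Against non-cachectic mice the count was 1 without cachectic replicate 1 and 5 without replicate 5 at 6 weeks, and 4 without cachectic or non-cachectic replicate 2 at 8 weeks. On the scaled values at 8 weeks it was 1 without control replicate 1, 3 or 5, and 5 against non-cachectic mice without cachectic replicate 7. Without cachectic replicate 5 at 6 weeks, 2 were called against control and 1 against non-cachectic mice. At 2 weeks the scaled count was 0 without cachectic replicate 3 or 4 or control replicate 2, 4 or 5, and 3 to 7 without cachectic replicate 1, 2 or 5 or control replicate 1 or 3.

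Small fold changes against control mice at 8 weeks turned positive on the log2 scale. With median-ratio scaling mt-Co1 was 0.029, mt-Atp6 0.126, mt-Co3 0.132, mt-Nd4 0.017 and mt-Cytb 0.00323. With the replicate block mt-Atp6 was 0.062 and mt-Co3 0.117. Leaving out single mice gave -0.139 to 0.024 for mt-Atp6 and -0.148 to 0.053 for mt-Co3. At 2 weeks the difference in summed share changed sign without the 4 libraries with the fewest genes. It went from 4.43 to -1.43 percentage points against control mice and from 1.38 to -3.03 against non-cachectic mice. At 8 weeks it went from -4.29 to -7.02 and from -4.43 to -7.16. With single mice left out, the sign of the cachectic differences changed only against non-cachectic mice at 2 weeks, at -1.50 to 3.87. Dunn's test was not run for the change of the difference from 4 to 8 weeks, and scalings that the mitochondrial sum undoes were not run on the scaled values. Depth is unknown, so low values such as those of mt-Nd6 carry no counting interval.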
